A study of Mus musculus with 18 samples.

Results

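Tug1 and Gm2044 are long noncoding RNA genes with a published role in spermatogenesis, and they were taken by symbol as 2 of the 13218 rows of the deposited table. The RNA came from germ cells of ICR mouse testes that had been sorted by STA-PUT, a method that parts cells by how fast they sink under gravity. The cell type labels are priSG-A at postnatal day 6, priSG-B at day 9, plpSC at day 14, pacSC at day 21, rST at day 35 and elST at day 56, with 3 libraries each and 18 in all. No treatment or mutation is named, and the type names are not spelled out in the labels; in this field SG is short for spermatogonia, SC for spermatocytes and ST for spermatids. Duplicates are mentioned in the series text, and no label says whether the 3 libraries of a type came from separate animals, so the p-values speak of variation from library to library, which may be technical.

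Long noncoding RNAs are transcripts without a long reading frame, and the testis is known for expressing very many of them. Tug1 (taurine upregulated gene 1) is a conserved nuclear and cytoplasmic RNA, and male mice that lack it are sterile, with few and misshapen sperm. Gm2044 lies beside Utf1, which encodes a chromatin factor of undifferentiated spermatogonia, and has been reported to lower Utf1 translation. It is also the host transcript of miR-202, a microRNA of the gonads whose loss in mouse spermatogenic cells leads to early entry into meiosis.

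Gm2044 (chromosome 7, 139957005 to 139958039 on mm10, minus strand) is an intergenic RNA with 2 exons and 911 exonic bases in GENCODE M21. The Mir202 hairpin (139957689 to 139957760, minus strand) lies wholly within its exon 2, at bases 156 to 227 of the spliced transcript, so the sequence of the precursor is part of the RNA that the table measures. The hairpin and its products are shown because they lie within the bases counted in the FPKM (fragments per kilobase, scaled to library size) of Gm2044; the mature forms were not analysed here. Sequences are from RefSeq on GRCm38.p6, 5′ to 3′; capitals mark the mature arms in the hairpin and the seed, bases 2 to 8, in each mature form, with a let-7 form for comparison.
Mir202 hairpin: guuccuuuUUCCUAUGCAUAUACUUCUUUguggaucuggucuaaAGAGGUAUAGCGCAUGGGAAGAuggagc
miR-202-5p: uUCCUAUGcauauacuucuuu
miR-202-3p: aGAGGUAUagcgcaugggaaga
let-7a-5p: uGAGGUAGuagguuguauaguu

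Bases 2 to 7 of miR-202-3p were the same as those of let-7a-5p, and the differences within bases 1 to 8, counted from the 5′ end with the miR-202-3p base first, were A1U and U8G. Of 1679 mature names in the RefSeq table, 13 carried these bases 2 to 7, and 10 of the 13 were let-7 names. The whole seed of miR-202-3p was shared with 1 other name, let-7j. The seed of miR-202-5p was found in no other name.

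**Figure D1:**
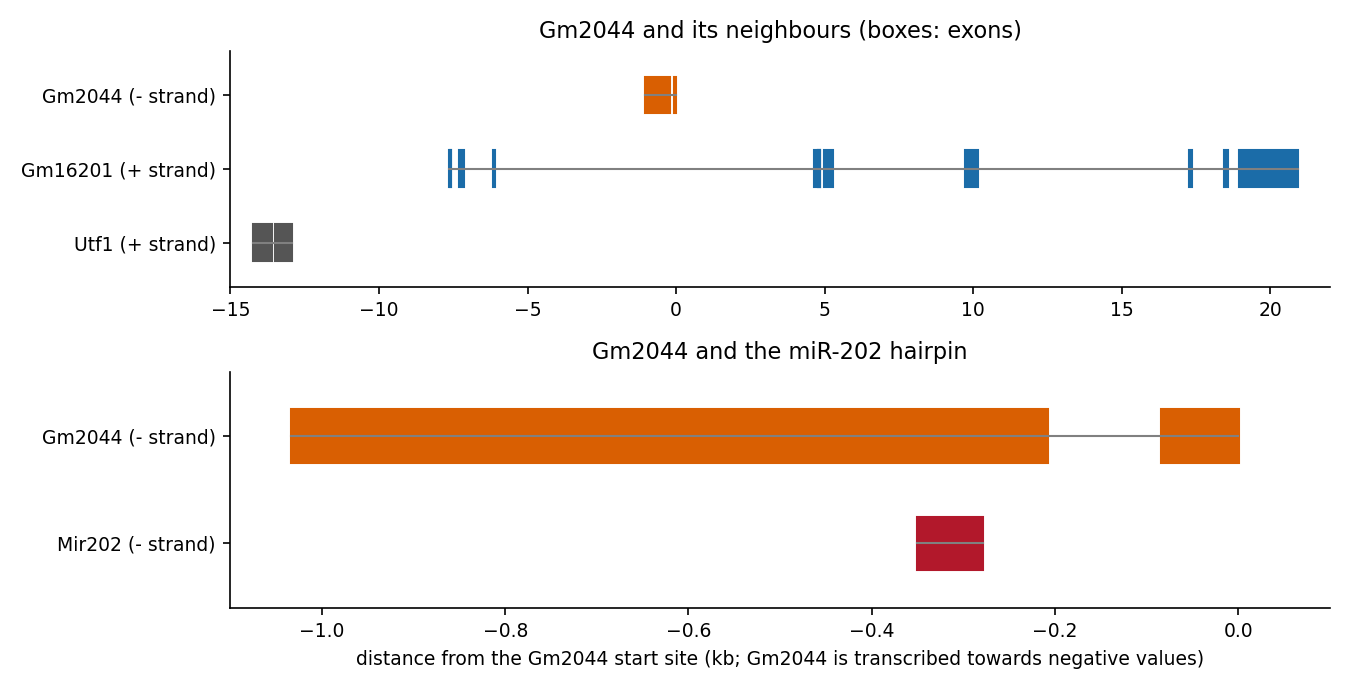
Map of Gm2044 with the opposite-strand gene Gm16201 and Utf1 (upper panel) and with the miR-202 hairpin (lower panel); the x axis is the distance in kb from the start site of Gm2044, boxes are exons and lines are introns. Gm2044 lies within an intron of Gm16201 and shares no exon bases with it, and the hairpin sits inside exon 2 of Gm2044.

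Tug1 (chromosome 11, 3639785 to 3649673, minus strand) has 8 transcripts in GENCODE M21 and is classed as antisense, since its longest extent overlaps the start of Morc2a, a coding gene on the plus strand. The overlap of exons came to 483 bp of the 9734 exonic bases of Tug1. With the TruSeq RNA kit of the protocol, which keeps no strand information, reads in those bases could not be told from Morc2a reads. The RefSeq start sites of Tug1 (3648814) and Morc2a (3649189) face away from each other with 374 bp between them. The promoter window of Tug1, from 250 bases before to 50 after its start, is shown because Tug1 was measured in every library and the window lies, in its larger part, between the start sites of Tug1 and Morc2a (chr11:3648765-3649064, minus strand, RefSeq on GRCm38.p6). Capitals mark the GC box GGGCGG.
Tug1 promoter: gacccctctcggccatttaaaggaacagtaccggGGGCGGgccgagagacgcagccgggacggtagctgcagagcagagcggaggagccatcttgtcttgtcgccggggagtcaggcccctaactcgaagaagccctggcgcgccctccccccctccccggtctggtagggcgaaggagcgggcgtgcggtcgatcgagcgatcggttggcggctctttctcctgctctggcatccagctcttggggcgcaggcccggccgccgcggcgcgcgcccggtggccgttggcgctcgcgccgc

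The window held 71.3% G and C and 37 CpG pairs, against a median of 7 CpG pairs over 32851 promoter windows, and 94.4% of windows held fewer. Motifs were searched on both strands. GGGCGG had 1 match in it, at position -216 from the start, and 35.7% of all windows held it. The MYB core AACNG had 3 matches, and 80.3% of all windows held it. CCAAT (37.4% of all windows), TATAAA (13.6%) and the CRE core TGACGT (7.51%) had no match in this window. No promoter window of Gm2044 was matched.

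Some libraries went against their labels, and this bears on both genes. The table holds noncoding loci, so 31 of the 38 marker genes listed for germ and somatic cells are not among its rows, and the only germ cell marker left is 1700027A15Rik (chromosome 1, 72984844 to 73025507), which shares 40 bp of exon with Tnp1, the transition protein gene of spermatids, on the opposite strand. With a kit that keeps no strand information, reads in those 40 bp could not be told from Tnp1 reads. Their part in the values of 1700027A15Rik was not tested. The locus 1700027A15Rik stood below 1 FPKM in 9 libraries, at 11.8 FPKM in priSG-A replicate 3 and above 70 FPKM in 8. The library labelled rST replicate 1 is listed at 0 FPKM and that labelled elST replicate 1 stood at 0.570 FPKM, while the library labelled plpSC replicate 3 stood at 874 FPKM. In 13 of the 18 libraries the closest profile, by Pearson's r on the log2 scale across loci, carried another type label. The libraries priSG-A 3, plpSC 3, pacSC 3, rST 1 and elST 1 stood apart from their types, and results are given with and without these 5.

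The libraries also fell into classes by AY036118, a ribosomal RNA-derived locus. It stood at 7.25 to 36.2 FPKM in 6 libraries (all of priSG-B, pacSC 1 and 2, and elST 3) and at 1998 to 13911 FPKM in the other 12. Depth, inferred from the steps of low FPKM values, was 65.3 to 91.7 M fragments in the low class of 6 and 31.65 to 56.7 M fragments in the high class of 12. The labels name no batch. All priSG-B libraries are in the low class and all priSG-A, plpSC and rST libraries in the high class, so for those pairs class and type cannot be told apart.

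Tug1 was present in every library. It ranged from 13.1 to 37.1 FPKM over the 18 libraries, with a median of 26.2 FPKM, and the highest was 2.83-fold above the lowest. It was 1 of 40 loci at 10 FPKM or more in every library, and by this fold between extremes it was the third most even of the 40, whose median was 6.42-fold. Its SD over the 18 libraries was 0.46 on the log2(FPKM + 1) scale, against a median of 0.78 over the 4117 loci tested, which are those at 1 FPKM or more in 3 libraries or more. These spreads are of FPKM as deposited, and evenness after scaling between libraries was not computed. The SE of the Tug1 contrasts in limma was 0.45 as deposited, 0.93 after quantile normalization and 0.90 after upper quartile scaling.

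In priSG-A, Tug1 stood at 25.4, 33.0 and 31.0 FPKM (29.8 ± 3.95, mean ± SD, n = 3). In priSG-B it stood at 37.0, 36.6 and 37.1 FPKM (36.9 ± 0.235, n = 3), above each of the other 15 libraries. Of the 4117 loci tested, 5.95% had all 3 priSG-B libraries above the other 15. The replicates labelled plpSC stood at 22.6, 22.6 and 15.3 FPKM (20.2 ± 4.23, n = 3), which was the lowest mean of the 6 types. The pacSC libraries were split, with replicates 1 and 2 at 28.2 and 27.0 FPKM and replicate 3 at 13.1 FPKM (22.8 ± 8.40, n = 3). In rST, replicate 1 stood at 34.5 FPKM and replicates 2 and 3 at 18.6 and 15.7 FPKM (22.9 ± 10.1, n = 3). In elST, Tug1 stood at 25.1, 16.1 and 29.4 FPKM (23.5 ± 6.78, n = 3).

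**Figure D2:**
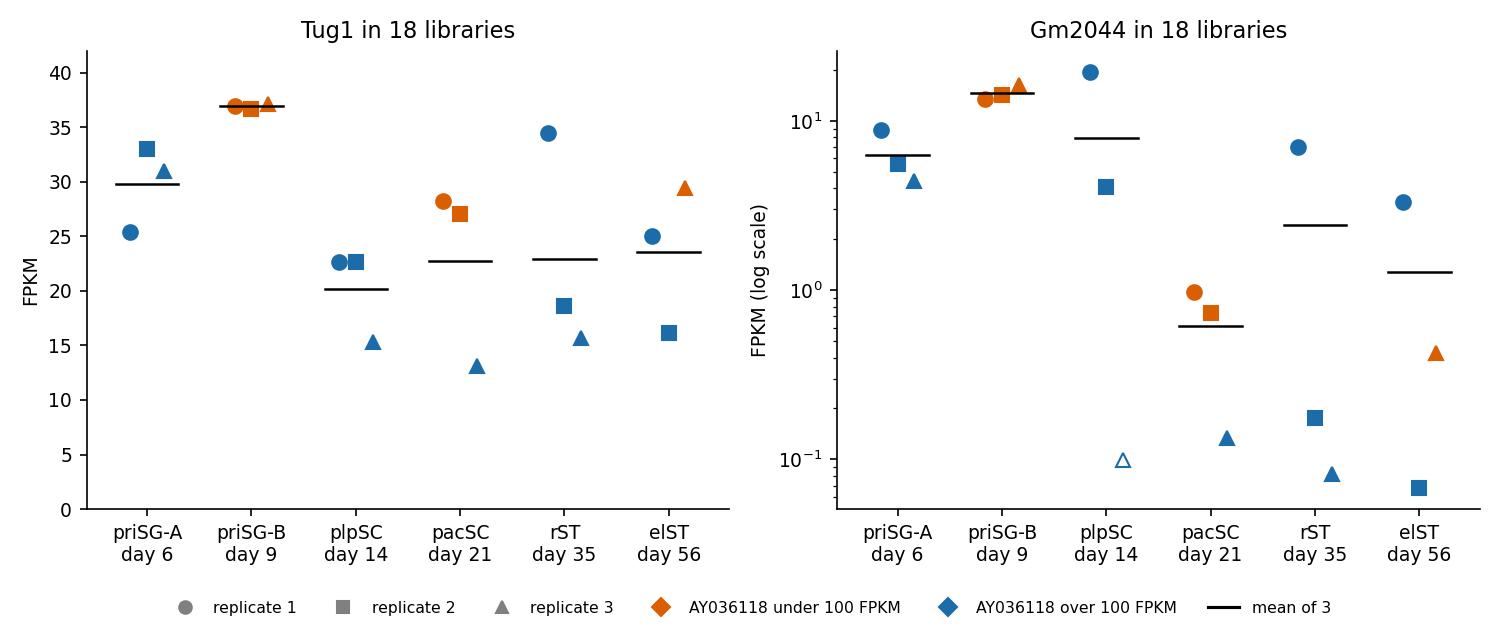
FPKM of Tug1 (left, linear axis) and Gm2044 (right, log axis) in each library by cell type and postnatal day; symbols give the replicate number, colours the AY036118 class and bars the mean of 3. Tug1 stays between 13.1 and 37.1 FPKM; Gm2044 stands at 13.5 to 16.3 FPKM in priSG-B and below 1 FPKM in all pacSC libraries, and the open symbol marks plpSC replicate 3, listed at 0 and drawn at 0.0993 FPKM, the value of 3 fragments there.

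Ordered by mean, Tug1 was highest in priSG-B, then priSG-A, elST, rST, pacSC and plpSC. No neighbours in this order differed beyond their spread in limma on log2(FPKM + 1), fitted to all 18 libraries with Benjamini-Hochberg adjustment over the 4117 loci. An F test for any difference among the 6 types gave an adjusted p of 0.464 for Tug1, while 0.68% of loci were called. Without the 5 libraries that stood apart the F test called Tug1 (adjusted p = 0.0471), but it then called 3630 of 3787 loci, so the call is near the background.

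Of the 15 pairs of types, priSG-B against priSG-A called 0.656% of the 4117 loci higher and 0.0243% lower in limma, and plpSC against priSG-B 0.0243% higher and 1.24% lower. For rST against priSG-B these shares were 0.0729% and 2.43%, and for elST against priSG-B 0.0243% and 1.07%. Apart from pacSC against priSG-B, given with Gm2044, the other 10 pairs called no locus in limma, with 8 to 1457 loci at an unadjusted p under 0.05. Tug1 was called in none of the 15.

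In priSG-B against priSG-A, the log2 fold change of Tug1 was 0.31 ± 0.45 (SE), with a 95% interval of -0.64 to 1.26 (limma adjusted p = 1). The 3 priSG-B libraries lay above the 3 of priSG-A, as was so for 11.1% of loci (18% had them all below), and all priSG-B libraries are in the low AY036118 class. In plpSC against priSG-B it was -0.86 ± 0.45, with a 95% interval of -1.81 to 0.088 (limma adjusted p = 0.671); the libraries did not overlap, plpSC being lower, as for 10.9% of loci (12.5% had plpSC higher). All the alternatives gave a negative value, from -1.70 after upper quartile scaling to -0.086 ± 0.54 with the AY036118 class as a term (limma adjusted p = 0.991). It passed with array quality weights (-0.68, limma adjusted p = 0.00348), a fit in which the F test called 4054 of 4117 loci.

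The last 3 steps were not called for Tug1 in the unweighted fit to all 18 libraries, and each changed direction under some alternative. In pacSC against plpSC the log2 fold change of Tug1 was 0.11 ± 0.45 (interval -0.83 to 1.06), in rST against pacSC 0.0045 ± 0.45 (-0.94 to 0.95) and in elST against rST 0.074 ± 0.45 (-0.87 to 1.02). The smallest limma adjusted p of these 3 was 0.854, and the libraries overlapped in each pair. Over all loci, 5.39% had the 3 pacSC libraries above and 2.43% below those of plpSC, 0.632% had rST above and 11.7% below pacSC, and 4.25% had elST above and 0.243% below rST. The pacSC against plpSC value was -1.15 after quantile normalization and -1.08 after upper quartile scaling. In rST against pacSC these gave 0.63 and 0.69, the AY036118 class as a term 0.52 and the high-class libraries alone 0.69, whereas array quality weights gave -0.56 and passed (limma adjusted p = 0.0286). Without the 5 libraries, rST against pacSC gave -0.66 ± 0.31 (limma adjusted p = 0.0879), where the rST libraries held 18.6 and 15.7 FPKM of Tug1 and the pacSC libraries 28.2 and 27.0 FPKM. Those pacSC libraries are in the low AY036118 class and the rST libraries in the high class.

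Within types that span both classes, Tug1 was higher in the low-class libraries. It stood at 28.2 and 27.0 FPKM in low-class pacSC, against 13.1 FPKM in the high-class one, and at 29.4 FPKM in low-class elST, against 25.1 and 16.1 FPKM in the high class. Over all libraries it ranged from 27.0 to 37.1 FPKM in the low class and from 13.1 to 34.5 FPKM in the high class. The high-class pacSC library (replicate 3) and elST replicate 1 are among the libraries that stood apart from their types. Class and standing apart therefore cannot be told apart in pacSC, and they are partly mixed in elST. The part of this class difference in the Tug1 comparisons was not tested by itself. With the class as a term in the fit, the log2 fold change of priSG-B against priSG-A was -0.46 ± 0.54 (limma adjusted p = 0.827). That term rests on the pacSC and elST libraries alone, since every other type lies within a single class.

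Gm2044 was above 4 FPKM in all priSG-A and priSG-B libraries and under 1 FPKM in 7 of the 9 pacSC, rST and elST libraries. The share of all loci with such a split was not counted. In priSG-A, Gm2044 stood at 8.81, 5.55 and 4.43 FPKM (6.27 ± 2.28, n = 3). In priSG-B it stood at 13.5, 14.3 and 16.3 FPKM (14.7 ± 1.45, n = 3). All 3 lay above the 3 priSG-A libraries, as for 11.1% of loci tested (18% had them all below). Fragment numbers could be inferred for this gene, which has 1 transcript, and these values rest on 144 to 938 fragments per library.

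The plpSC libraries had the largest SD of the 6 types. Gm2044 stood at 19.5 FPKM in replicate 1, the highest value of the 18, at 4.09 FPKM in replicate 2, and is listed at 0 in replicate 3 (7.88 ± 10.3, n = 3). With 3 fragments taken as the limit that a count of 0 allows, up to 0.0993 FPKM could be missed there; the upper end of the exact two-sided 95% Poisson interval is 0.122 FPKM. Replicate 3 is the plpSC library with 874 FPKM of 1700027A15Rik; that locus is listed at 0 in the others.

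In pacSC, Gm2044 stood at 0.977, 0.736 and 0.133 FPKM (0.615 ± 0.435, n = 3), from 46, 33 and 3 fragments. All 3 pacSC libraries lay below each priSG-B library, as for 22.2% of loci tested (58.1% had them all above). In rST, replicate 1 stood at 7.01 FPKM from 188 fragments, while replicates 2 and 3 stood at 0.175 and 0.0822 FPKM from 6 and 2 fragments (2.42 ± 3.98, n = 3). In elST, replicate 1 stood at 3.32 FPKM from 92 fragments, and replicates 2 and 3 at 0.0676 and 0.427 FPKM from 2 and 18 fragments (1.27 ± 1.78, n = 3). The exact 95% Poisson interval of 2 fragments is 0.242 to 7.225 fragments, so the lowest values could not be ordered at this depth, and intervals of this kind cover counting error only.

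**Figure D3:**
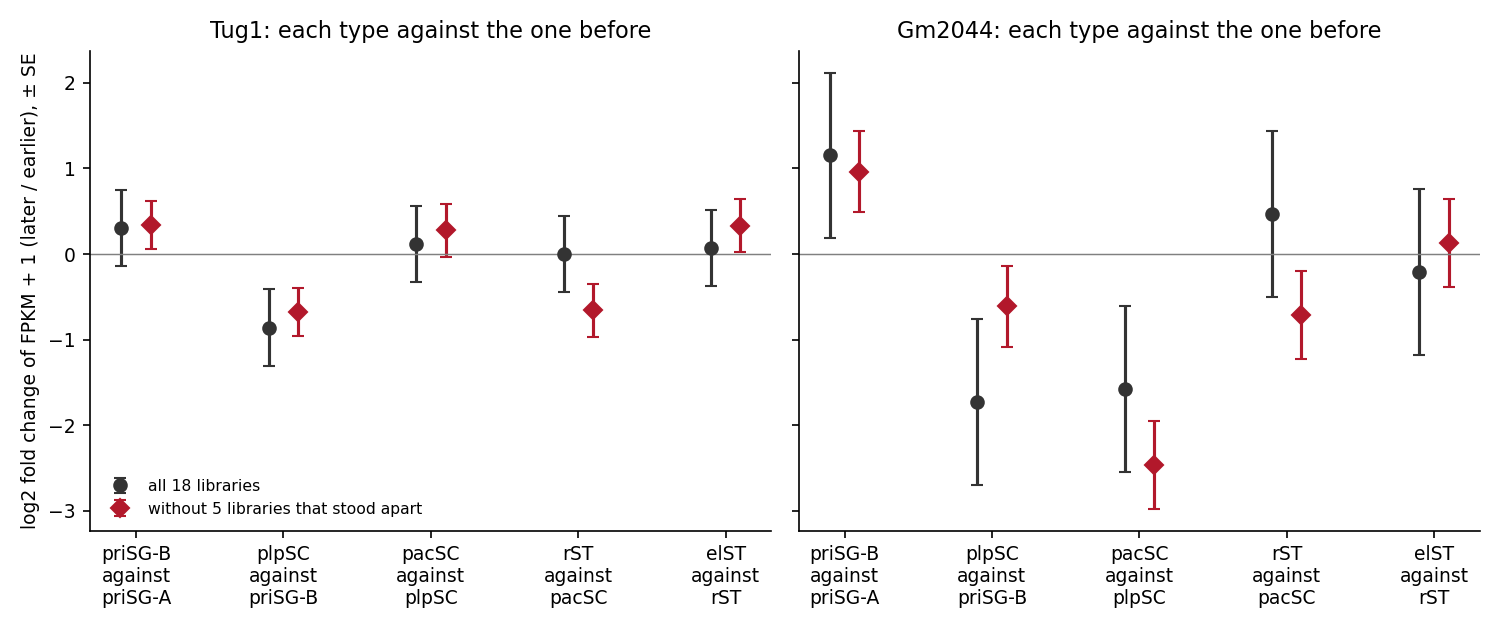
Log2 fold change of FPKM + 1 for Tug1 (left) and Gm2044 (right) in each type against the one before it, with all 18 libraries (circles) and without the 5 that stood apart (diamonds); bars are the SE from limma. The Tug1 values lie between -0.86 and 0.34; for Gm2044 the pacSC against plpSC value is -1.58 with all libraries and -2.47 without the 5.

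Ordered by mean, Gm2044 was highest in priSG-B, then plpSC, priSG-A, rST, elST and pacSC, and no neighbours in this order differed beyond their spread in limma. The places of plpSC and rST rest on their replicate 1: by median, plpSC (4.09 FPKM) was below priSG-A (5.55 FPKM) and rST (0.175 FPKM) was the lowest, and on the log2 scale plpSC against priSG-A was -0.58 ± 0.97. The F test over the 6 types did not call it (adjusted p = 0.294 over 4117 loci, unadjusted p = 0.0256). Without the 5 libraries that stood apart it did (adjusted p = 6.34e-05), as it did for 3630 of 3787 loci.

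One of the 15 pairs of types passed the test for Gm2044, and none did for Tug1. In pacSC against priSG-B, Gm2044 fell by 3.31 ± 0.97 on the log2 scale (limma adjusted p = 0.0481), with 0.615 ± 0.435 FPKM in pacSC and 14.7 ± 1.45 FPKM in priSG-B (n = 3 each). Of the loci tested, 5.39% were called lower in pacSC in this pair and 16.2% higher, while 22.2% had all pacSC libraries below those of priSG-B and 58.1% above. The call was lost without any 1 of the 6 libraries (limma adjusted p = 0.0668 to 0.122) and with no filter on low values (0.0759), while the direction held in all the alternatives, from -4.63 to -3.06. With pacSC 1 and 2 alone against priSG-B, all in the low AY036118 class, the value was -3.08 in the fit without the 5 libraries (limma adjusted p = 0.000187), where the F test called 3630 of 3787 loci.

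In the unweighted fit to all 18 libraries, no step between adjacent types passed for Gm2044. With array quality weights the first 3 steps passed, but the F test then called 4054 of 4117 loci. In priSG-B against priSG-A the log2 fold change of Gm2044 was 1.15 ± 0.97 (interval -0.92 to 3.22, limma adjusted p = 1), and it passed only with array quality weights (1.08, limma adjusted p = 0.00329) and when the 6 libraries of the pair were fitted alone (1.15 ± 0.27, limma adjusted p = 0.0210). The share of loci called in the fit of those 6 libraries was not counted. The priSG-B libraries are all in the low AY036118 class and those of priSG-A in the high class. Class and type cannot be told apart in that pair. In plpSC against priSG-B the log2 fold change of Gm2044 was -1.73 ± 0.97 (interval -3.80 to 0.34, limma adjusted p = 0.671), with overlapping libraries. With array quality weights it was -1.21 (limma adjusted p = 0.00104). Without plpSC replicate 1 it was -2.79 and without plpSC replicate 3 it was -0.61.

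In pacSC against plpSC the log2 fold change of Gm2044 was -1.58 ± 0.97 (interval -3.65 to 0.49, limma adjusted p = 0.323). Without plpSC replicate 3, which is listed at 0, it was -2.70 ± 0.88 and passed (limma adjusted p = 0.0440). For that fit the share of loci called in this pair was not counted. With array quality weights the log2 fold change was -1.85 (limma adjusted p = 1.14e-05). Without the 5 libraries it was -2.47 ± 0.52 (limma adjusted p = 0.00151), where the F test called 3630 of 3787 loci. The 5 were picked from these same data for standing apart from their types, so a smaller spread within types is built into that last fit. In that last fit the values are 0.977 and 0.736 FPKM in pacSC and 19.5 and 4.09 FPKM in plpSC, and type and AY036118 class cannot be told apart. In rST against pacSC it was 0.46 ± 0.97 (interval -1.61 to 2.53) and in elST against rST -0.21 ± 0.97 (-2.28 to 1.86), with limma adjusted p of 0.880 and 0.977. Both turned in sign without rST replicate 1, to -0.48 and 0.73.

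Gm2044 was also set against 1700027A15Rik library by library, without regard to the labels. In the 9 libraries with 1700027A15Rik below 1 FPKM, Gm2044 ranged from 3.32 to 19.5 FPKM, and these include rST replicate 1 and elST replicate 1. In the 8 libraries with 1700027A15Rik above 70 FPKM, Gm2044 ranged from 0 to 0.977 FPKM, and these include plpSC replicate 3. The remaining library, priSG-A replicate 3, had 4.43 FPKM of Gm2044. These ranges are a description, and in bulk RNA fewer cells of a type and less RNA per cell cannot be told apart. The share of all loci that part these sets of libraries was not counted. The gap is therefore not shown to be particular to Gm2044. H19 is a marker of somatic and fetal cells. It stood at 6.44 to 234 FPKM in the same 9 libraries and at 0.286 to 0.810 FPKM in the same 8. Rian did not overlap either, at 7.31 to 19.6 FPKM in the 9 and 2.28 to 4.64 FPKM in the 8. Meg3 overlapped, at 1.85 to 18.9 FPKM in the 9 and 0.389 to 3.25 FPKM in the 8. Mirg overlapped but reached higher in the 8, at 1.08 to 4.36 FPKM against 0.209 to 2.03 FPKM in the 9. The part of these loci in the Gm2044 pattern was not tested. The summed level of the 4 somatic noncoding markers H19, Meg3, Rian and Mirg, none of them at 0 in any library, was 5.46 to 274 FPKM in priSG-A, 50.1 to 51.8 FPKM in priSG-B, 5.32 to 49.2 FPKM in plpSC, 5.60 to 12.7 FPKM in pacSC, 8.91 to 16.95 FPKM in rST and 4.63 to 34.0 FPKM in elST. The 8 listed Sertoli and Leydig cell markers are coding genes and not rows of the table.

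Tug1 overlapped between the same sets of libraries, at 22.6 to 37.1 FPKM in the 9 and at 13.1 to 29.4 FPKM in the 8. Gm16201, the opposite-strand gene that spans Gm2044 without sharing exon bases, was the only other locus of the table within 100 kb of Gm2044. It stood at 0.0747 to 0.852 FPKM in the 9 libraries and at 2.28 to 3.22 FPKM in the 8, and at 2.78 FPKM in priSG-A replicate 3. Apart from priSG-A replicate 3, the libraries with Gm16201 above 1 FPKM had Gm2044 below 1 FPKM. More loci were expressed in the 8 libraries, with 2491 to 2866 at 1 FPKM or more, against 1342 to 1695 in the 9. The share of all loci with a gap in this direction was not counted, so the gap is not shown to be particular to Gm16201. No other locus of the table lay within 100 kb of Tug1.

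**Figure D4:**
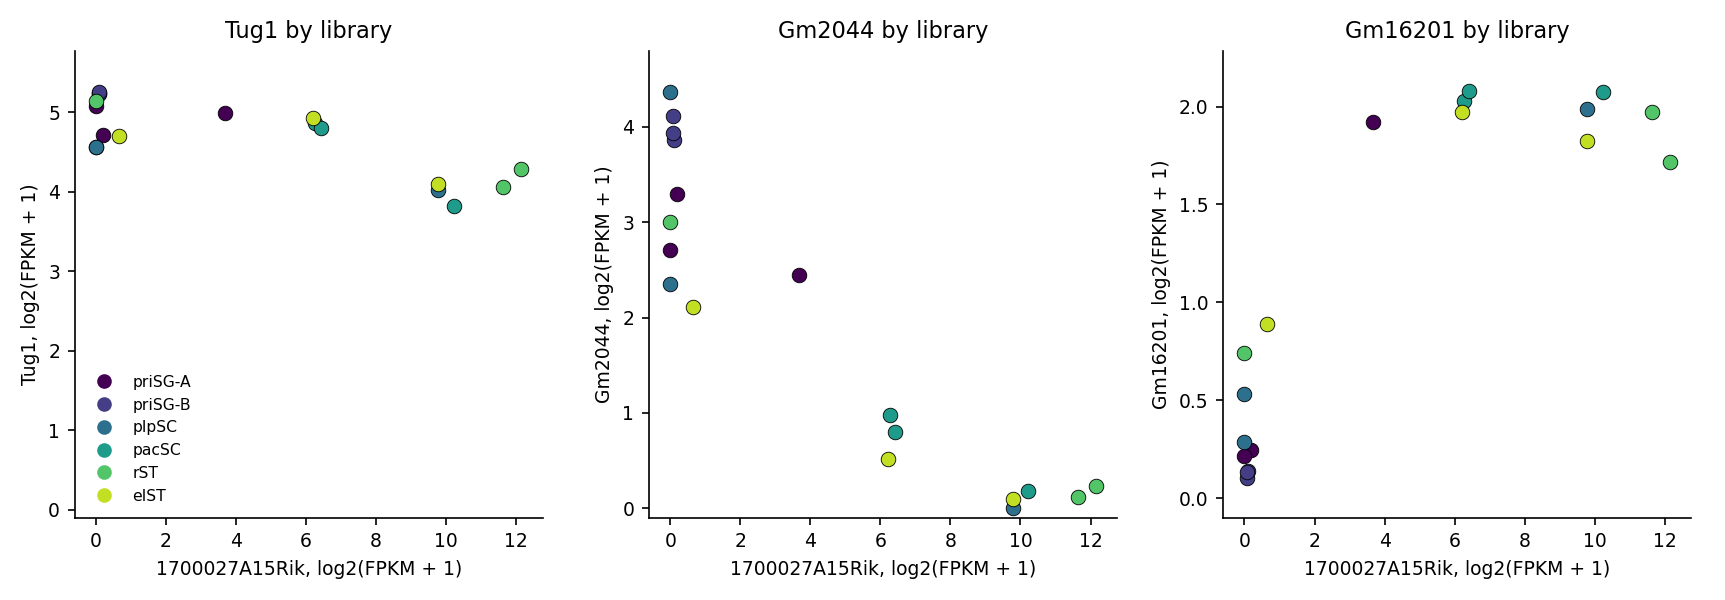
Tug1, Gm2044 and Gm16201 (y axes) against 1700027A15Rik (x axis), each as log2(FPKM + 1), with 1 point per library coloured by cell type label. Gm2044 is at 3.32 FPKM or more in all 9 libraries at the left edge and below 1 FPKM in the 8 at the right, Gm16201 runs the other way, and Tug1 overlaps. The share of all loci with such a gap was not counted.

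Ranks within a library do not depend on scaling between libraries, but they do depend on how many other loci are expressed. They are given here for both genes. Tug1 ranked between 54 and 105 of 13218 rows in the 10 libraries with Gm2044 at 1 FPKM or more, and between 250 and 651 in the other 8. The 10 libraries held 1342 to 2291 loci at 1 FPKM or more, and the other 8 held 2491 to 2866. In pacSC replicate 1 Tug1 ranked 250 at 28.2 FPKM, and in priSG-A replicate 1 it ranked 77 at 25.4 FPKM. A lower rank is thus not by itself a lower level of Tug1. Those sets were made by the level of Gm2044 itself, so a gap in its own rank between them was set by that cut. Gm2044 ranked between 96 and 767 in those 10 libraries. In the other 8 it ranked between 2748 and 6636 where it was above 0, and it was tied with all rows at 0 in plpSC replicate 3. Tug1 exceeded Gm2044 in every library in FPKM, which is per length, by as little as 1.16-fold in plpSC replicate 1.

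**Figure D5:**
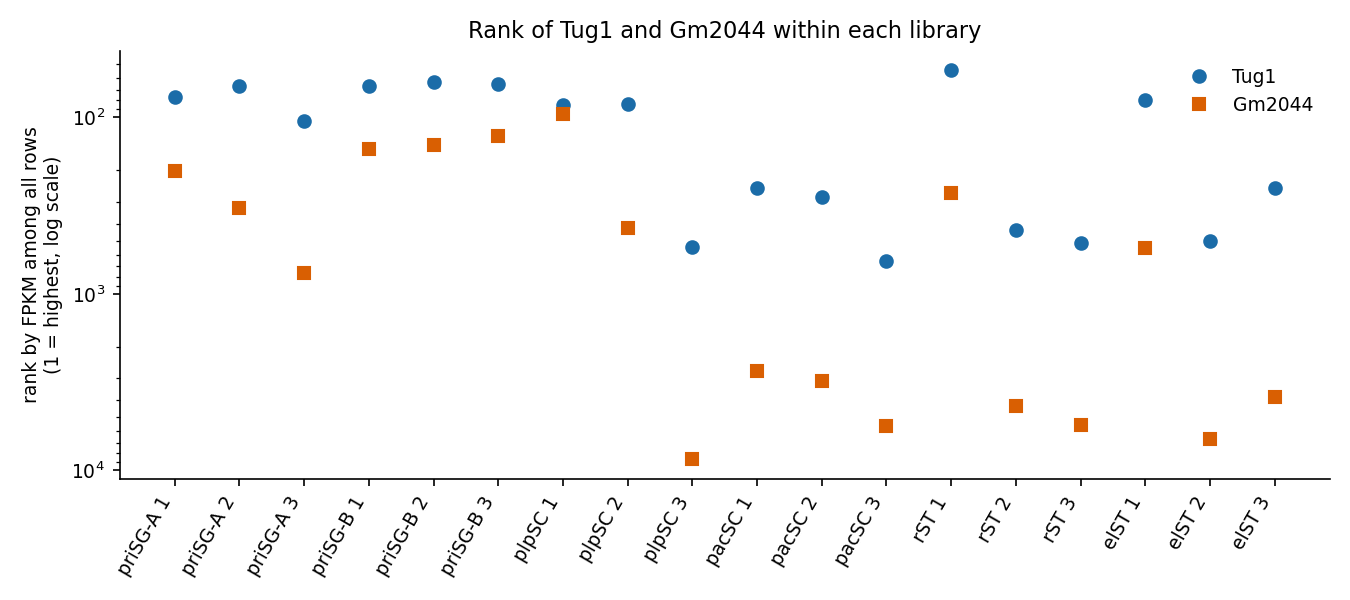
Rank of Tug1 (circles) and Gm2044 (squares) by FPKM among the 13218 rows of each library (log axis, 1 at the top). Tug1 ranks between 54 and 651 in all libraries, while Gm2044 ranks between 96 and 767 in 10 libraries and at 2748 or lower down in the other 8. The 10 are those with Gm2044 at 1 FPKM or more, so a gap in its rank was set by that cut.

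Across the 18 libraries, Tug1 and Gm2044 had a Pearson's r of 0.73 and a Spearman's rho of 0.74 on the log2 scale. With 16 libraries, leaving out those farthest from the median of Tug1, r was 0.66, and without the 5 libraries that stood apart it was 0.65. The points share library, depth and the AY036118 class, and the values are a description.

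The loci most like Tug1 over the 18 libraries, by Pearson's r on the log2 scale, were C130013H08Rik (0.95), A930015D03Rik (0.94), Gm47484 (0.93), Snhg12 (0.92) and Gm44777 (0.92). Snhg12, a small nucleolar RNA host gene, ranged from 1.14 to 27.9 FPKM, a wider span than Tug1. C130013H08Rik, an antisense locus on chromosome 3, ranged from 0.0904 to 3.12 FPKM. In all, 14 tested loci had an r over 0.9 with Tug1.

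The loci most like Gm2044 were Gm37309 (0.96), Gm29737 (0.95), Gm17122 (0.95), Gm4673 (0.95) and Gm11613 (0.95). Gm17122, an antisense locus on chromosome 5, ranged from 0.427 to 20.4 FPKM, and Gm2044 from 0 to 19.5 FPKM. Gm29737, an intergenic RNA on chromosome 12, ranged from 0 to 8.36 FPKM. In all, 105 tested loci had an r over 0.9 with Gm2044. Without the 5 libraries that stood apart, the 5 loci of each gene kept an r of 0.91 or more with Tug1 and of 0.95 or more with Gm2044. They had been picked by r over all 18 libraries, so a high r in a part of these was partly built in. By Spearman's rho they ranked 3 to 32 among tested loci for Tug1 and 1 to 22 for Gm2044. Some were low, with A930015D03Rik at 1.28 FPKM at most and Gm37309 at 1.17 FPKM at most.

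Other widely studied long noncoding RNAs were counted for comparison, from a list of 60 symbols of which 48 were in the table and 37 were tested. In pacSC against priSG-B, the pair that called Gm2044, 3 of the 37 were higher and 5 lower in limma, against 16.2% and 5.39% of all loci. The median log2 fold change of the 37 was -0.80, against 0.97 over all loci. In plpSC against priSG-B their median was -0.68, against 0.42 over all loci, with 1 higher (Rmrp, the RNA of RNase MRP) and 1 lower (Ftx, of the X-inactivation centre). All 3 priSG-B libraries list Rmrp at 0, and whether this is a failed estimate was not tested. By SD over the 18 libraries, with FPKM as deposited, Tug1 was the sixth most even among these 37 and itself, after Jpx, Peg13, Rmst, Kcnq1ot1 and Snhg8.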

How the data were processed

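Expression was deposited by the authors as FPKM, in 1 table with a column for each library. HISAT2, StringTie and mm10 were used, per the submitters' processing notes; the sources used here state no versions, annotation, strand setting or FPKM denominator. Libraries were made with a TruSeq RNA kit, per the labels' protocols. Positions of both genes were the same in GENCODE M21.

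Values were tested as log2(FPKM + 1), which understates the change of low genes, over the 4117 loci that 3 or more libraries held at 1 FPKM or above. Limma 3.58.1 (R 4.3.3) with trend and robust estimation was fitted to 18 libraries, two-sided, at an adjusted p of 0.05. It was also run on simulated data with independent noise and changes in priSG-B only. The simulation held no libraries that stood apart and no AY036118 classes, so it does not show how the fit behaves with these. Fragment numbers were inferred from 3336 single-exon loci over 600 bp, where 97.9 to 99.2% of low values came out whole within 0.05. Array weights, the AY036118 class, the replicate block, scaling, filters and left-out libraries were alternatives. The most similar loci are the 5 with the highest r.

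The members and lists were chosen with earlier results of these data known. The choice of the pacSC against priSG-B pair for alternatives was made after its value was seen. Tables were made with Python 3.11.15, pandas 2.3.3 and matplotlib 3.10.9.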

Additional observations from a re-analysis of the deposited data

How the results depend on the processing

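The cause of the changes below was not tested. On the log2 scale, Tug1 in pacSC against plpSC was -1.15 after quantile normalization, which moved the median of all loci by -0.55 in that pair, and -1.08 after upper quartile scaling, which also gave -0.015 in elST against rST. With the AY036118 class as a term, Tug1 was -0.46 in priSG-B against priSG-A, -0.086 in plpSC against priSG-B, -0.40 in pacSC against plpSC and -0.18 in elST against rST; in the high class alone, with no priSG-B library, the last pairs gave -0.57 and -0.10. With array quality weights, the F test called 4054 of 4117 loci, with adjusted p of 0.000213 for Tug1 and 1.60e-11 for Gm2044. Tug1 was then -0.68 in plpSC against priSG-B and -0.56 in rST against pacSC, and Gm2044 was 1.08, -1.21, -1.85, -0.64 and 0.31 over the 5 steps in time order, of which both Tug1 steps and the first 3 Gm2044 steps passed. Without the 5 libraries that stood apart, the F test gave adjusted p of 0.0471 for Tug1 and 6.34e-05 for Gm2044; rST against pacSC was -0.66 for Tug1 and -0.72 for Gm2044, and Gm2044 was -2.47 in pacSC against plpSC and 0.13 in elST against rST. The pair alone gave 1.15 for Gm2044 in priSG-B against priSG-A (limma adjusted p = 0.0210), with the share of loci called there not counted. No filter gave -3.31 for Gm2044 in pacSC against priSG-B (limma adjusted p = 0.0759). The pairs pacSC against plpSC, rST against pacSC and elST against rST alone could not be fitted for Gm2044, which missed the filter.

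Leaving out 1 library at a time, Tug1 ranged from -0.072 to 0.45 in pacSC against plpSC, -0.34 to 0.22 in rST against pacSC and -0.15 to 0.40 in elST against rST. Gm2044 ranged from -2.70 to -0.52, -0.48 to 0.96 and -0.81 to 0.73 in these pairs, and from -3.48 to -3.08 in pacSC against priSG-B. Its F test adjusted p ranged from 0.0662 to 0.440, and that of Tug1 from 0.303 to 0.682.

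The replicate numbers did not pair the libraries evenly. Of 45 same-numbered pairs, 25 had correlated deviations over 0.1, and these correlations ran from -0.83 to 0.87. Of 18 libraries, 7 correlated best with their own number, and the values to be had without any pairing were not computed. With the replicate block the F test called 30 loci, against 28 without it, and its adjusted p was 0.449 for Tug1 and 0.120 for Gm2044. At an unadjusted F test p under 0.05 there were 1584 loci with the block and 586 without it. In pacSC against priSG-B, Gm2044 was -3.31 ± 0.75 with the block (limma adjusted p = 0.0162), against an SE of 0.97 without it (0.0481). No call of either gene changed. Over the 29 settings the F test called 0 to 4054 loci: 1 with a pseudocount of 0.1, 90 with no filter, 9 with a filter of 5 FPKM, 43 after quantile and 50 after upper quartile scaling, 148 with the class term and 0 by limma in the high class alone, with 11 at an unadjusted p under 0.05. Without 1 priSG-B library it called 5, 2 or 2 loci, and without rST replicate 1 it called 78.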
